A study of Mus musculus with 14 samples.

Results

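The genes followed here were Bik, which codes for a protein that promotes cell death, and its relatives in the Bcl2 family, 10 genes in all. Of these, 9 were among the 18193 genes that had at least 1 probe set of their own on the arrays. Bik was chosen on its levels on these same arrays, so its values are given as a description with no test. The other members were taken for their family membership, with earlier results of these arrays known, and their tests are not independent evidence for any pattern. Every probe set annotated with a member and with no other gene was used, each on its own, which gave 31 probe sets. Bcl2 had 5, Bcl2l1 had 4, Mcl1 had 6, Bak1 had 2, Bik had 3, Bcl2l11 had 5, Bbc3 had 1, Bad had 2 and Bid had 3. Bax had 0 such probe sets among those used here and was not analysed.

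Proteins of the Bcl2 family meet at the outer membrane of the mitochondrion and set whether a cell enters apoptosis. Effectors such as Bak1 and Bax open pores in that membrane, guardians such as Bcl2, Bcl2l1 (Bcl-xL) and Mcl1 hold the effectors in check, and BH3-only proteins such as Bik, Bcl2l11 (Bim), Bbc3 (Puma), Bad and Bid bind guardians or effectors and push towards pore opening. Neurons and heart muscle cells are long-lived, and apoptosis is known to remove cells in both organs while they mature after birth.

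Hippocampus and heart came from untreated C57BL/6 mice, for which the labels name no genetic change. Pup tissue was taken at 7 days of age, with 3 biological replicates of each tissue and 1 array for each. Adult RNA came from males of 10 weeks and was bought, with 2 biological replicates of each tissue and 2 technical arrays for each, which were averaged. The sex of the pups was not given, and the labels do not say whether adult replicates came from different animals, so that p-values rest on a spread between samples that may be technical. Age cannot be told apart from the source and preparation of the RNA, because no pup RNA was bought and no adult RNA was prepared with that of the pups.

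All levels below are deposited log2 values, so that a difference of 1 is a doubling, and they ranged from 2.67 to 16.00 with a median of 8.85. Levels of different probe sets cannot be compared with each other, values close to 16.00 lie near the top of the range of the array, and no background level was set for low values. Array medians lay between 8.73 and 8.97, whereas the mean of 18 hybridization controls lay between 12.77 and 13.44 in pups and between 10.61 and 11.00 in adults. Each marker is given here, and in the list means below, by its brightest probe set. So read, all 10 cardiac muscle markers were higher in every heart than in every hippocampus. Of the 10 neuron markers, 5 were higher in every hippocampus than in every heart. Over all their probe sets, the limma fit described below called 8 of the 10 neuron markers higher in hippocampus at each age and 0 lower. Most cardiac markers, but not all, were highest among the pup hippocampi in replicate 1. Actc1, the actin of heart muscle, measured 14.76 there, 12.49 and 10.31 in the other pup hippocampi and at most 8.51 in adult hippocampus. The exceptions were Myl7, at 7.53 in replicate 1 against 7.56 and 7.86, Mybpc3, at 14.53 against 14.95 and 13.70, and Ryr2, at 9.90 against 10.63 and 9.35. In bulk tissue, fewer cells of a type and less RNA per cell cannot be told apart.

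Each count of called probe sets of the family is set beside the share called on the whole array. Of the 28 probe sets of the 8 tested genes, 2 were higher and 4 lower in adult than in pup heart, or 7.14% and 14.3%, where 11.7% of all 45037 probe sets were higher and 8.32% lower. In hippocampus 1 was higher and 4 were lower in adults, where 8.38% of all probe sets were higher and 6.52% lower. Between the pup tissues 4 were higher in hippocampus and 2 were higher in heart, where 7.52% of all probe sets were higher in hippocampus and 6.77% lower. Between the adult tissues 1 was higher and 3 were lower in hippocampus, where 10.3% of all probe sets were higher and 11.9% lower. The age difference in heart exceeded that in hippocampus for 2 and was below it for 0, where 2.37% of all probe sets passed upwards and 1.18% downwards, and 4 of the 28 had an unadjusted p under 0.05 in this comparison.

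The median difference of the 28 probe sets was 0.07 against 0.11 between adult and pup heart, 0.09 against 0.12 between adult and pup hippocampus, -0.09 against -0.10 between the pup tissues and 0.01 against -0.06 between the adult tissues, where the second value is that of the whole array. For the difference between the age effects it was 0.08 against -0.02. A call means a Benjamini-Hochberg adjusted p under 0.05 over all probe sets in a limma fit of the 10 samples. By role, the calls between adult and pup heart fell on 3 of 15 guardian probe sets and on 3 of 11 BH3-only probe sets. The guardian calls were all lower and all of Mcl1, and no probe set of Bcl2 or Bcl2l1 was called. Of the BH3-only calls 2 were higher, both of Bcl2l11, and 1 was lower, of Bad. Neither effector probe set, both of Bak1, was called in that comparison.

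**Figure D1:**
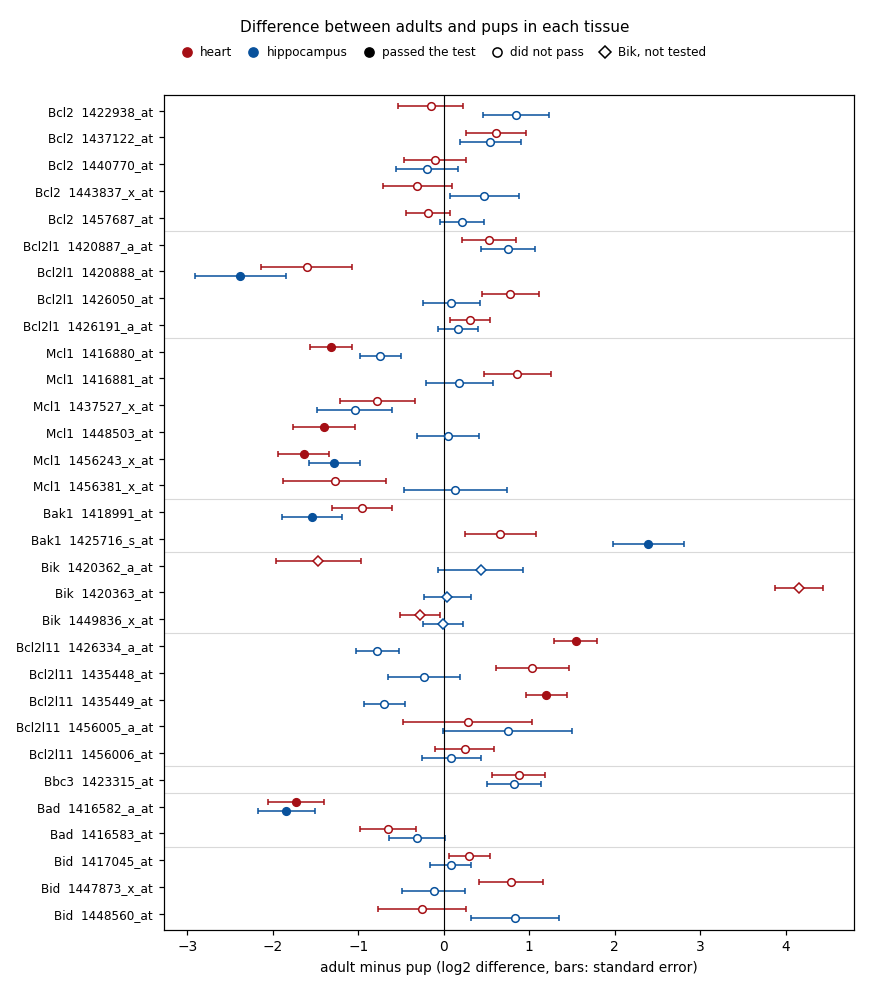
Difference between adults and pups for each of the 31 probe sets (x axis, adult minus pup on the log2 scale, bars are limma standard errors), red for heart and blue for hippocampus. Filled points passed the test, open points did not, and diamonds mark Bik, which was not tested. Bik 1420363_at lies apart at 4.15 in heart, while Bad 1416582_a_at and Mcl1 1456243_x_at lie below 0 in both tissues.

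Among the BH3-only genes, Bik gave the widest contrast and the least uniform one. By 1420363_at, Bik measured 12.04 and 12.02 in the adult hearts, 8.24, 7.66 and 7.73 in the pup hearts, 7.72, 7.26 and 7.08 in the pup hippocampi and 7.31 and 7.49 in the adult hippocampi. The adult hearts did not overlap with any other sample, and the remaining groups lay within 1.16 of each other. The mean of adult heart was 12.03 ± 0.01 (SD, n = 2) and that of pup heart 7.88 ± 0.32 (SD, n = 3), a difference of 4.15 or 17.8-fold. Adult hippocampus was 4.64 below adult heart by this probe set, whereas the 2 ages of hippocampus were 0.04 apart. The 4 technical arrays of adult heart measured 11.71, 12.37, 12.07 and 11.98, so that the level did not come from a single array. Leaving out any 1 of the 10 samples kept the difference between the ages of heart between 4.05 and 4.34.

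The other Bik probe sets did not show this pattern. By 1420362_a_at, Bik measured 8.10, 6.78 and 8.00 in the pup hearts but 6.11 and 6.20 in the adult hearts, so that adult heart lay 1.47 lower. The hippocampi by this probe set were all lower still, at 5.24, 4.04 and 5.42 in pups and 5.68 and 4.98 in adults. By 1449836_x_at, the pup hearts measured 7.88, 7.78 and 8.20, the adult hearts 7.64 and 7.70, and the hippocampi between 7.27 and 7.58. Both probe sets thus placed pup heart highest. Over the 10 samples they had a Pearson's r of 0.90 with each other and of 0.17 and 0.18 with 1420363_at. Hippocampi and adult hearts by 1420362_a_at lay below 7.69, the lower quartile of the probe set means over the 10 samples. The hippocampi by 1449836_x_at lay below that quartile too, and adult heart was 0.28 below pup heart by this probe set. Technical arrays lay up to 1.29 apart by 1420362_a_at and 1.12 by 1449836_x_at, both in adult hippocampus replicate 2. Differences at such low levels cannot be told apart from differences in background. The 2 probe sets that did not show the adult heart level are of the types _a_at and _x_at, which can match several transcripts of a gene or related sequences. Which transcript each Bik probe set reads was not examined, and the 17.8-fold difference is carried by 1 of the 3.

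**Figure D2:**
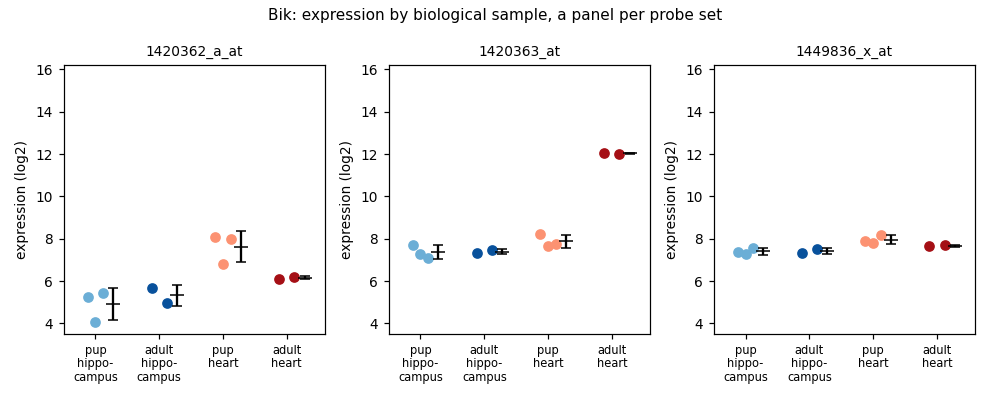
Bik expression (y axis, log2) in each biological sample, with a panel for each probe set and the group mean and SD in black. The adult hearts stand at 12.03 by 1420363_at, above every other sample, and below the pup hearts by 1420362_a_at and 1449836_x_at.

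The erythroid and leukocyte markers also moved between the ages of heart. Their mean over 9 genes lay between 8.73 and 9.25 in pup heart and between 9.83 and 9.90 in adult heart, with 7 of the 9 higher in adult heart on average. Ptprc, the pan-leukocyte surface protein CD45, measured 8.74, 8.69 and 8.06 in the pup hearts and 9.42 and 10.26 in the adult hearts. The ages overlapped neither for Ptprc nor for the list mean. The mean of 8 endothelial and fibroblast markers ran the other way, from 12.80 to 13.44 in pup heart and from 11.17 to 11.20 in adult heart, and 0 of the 8 were higher in adult heart on average. Cell cycle genes lay between 9.92 and 10.53 in pup heart and between 8.94 and 9.16 in adult heart. The mean of the 10 cardiac muscle markers, which define the tissue, lay between 14.81 and 15.18 in pup heart and between 13.88 and 14.26 in adult heart, without overlap, and 1 of the 10 was higher in adult heart on average. Means of the neuron markers overlapped between the ages of heart, at 10.32 to 10.86 in pups and 10.62 to 10.68 in adults. Those of astrocyte and oligodendrocyte markers overlapped too, at 9.62 to 10.19 in pups and 10.03 to 10.31 in adults. The part of these markers in the levels of Bik, Bcl2l11, Mcl1 and Bad in heart was not tested.

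Marker levels also differed between the ages of hippocampus. The mean of the 10 neuron markers lay between 13.03 and 13.10 in the pup hippocampi and between 12.33 and 12.55 in the adult hippocampi, with 4 of the 10 higher in adults on average. Endothelial and fibroblast markers lay between 11.14 and 11.33 in pups and between 10.70 and 10.86 in adults, with 3 of the 8 higher in adults, and cell cycle genes lay between 8.97 and 9.23 in pups and at 8.57 in adults, with 4 of the 11 higher. Cardiac muscle markers lay between 9.64 and 11.39 in the pup hippocampi and between 9.08 and 9.26 in the adult hippocampi. The ages overlapped in none of these 4 list means. They did overlap for astrocyte and oligodendrocyte markers, at 11.14 to 11.65 in pups and 11.31 to 11.33 in adults. In that list Aldoc fell by 1.36 on the log2 scale by 1451461_a_at, its probe set in the mean. Mbp rose by 5.58 by 1456228_x_at, which is not the Mbp probe set in the mean. By 1425264_s_at, which is, Mbp measured 12.32, 13.09 and 12.82 in the pup hippocampi and 13.99 and 13.40 in the adult hippocampi. Erythroid and leukocyte markers overlapped too, at 8.74 to 8.88 in pups and 8.86 to 9.28 in adults. The part of these lists in the hippocampal differences of Bcl2l1, Bad, Bak1 and Mcl1 was not tested.

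Bcl2l11, which codes for Bim, a BH3-only protein able to bind every guardian, was the member whose age difference itself differed between the tissues. By 1435449_at, Bcl2l11 measured 10.05 and 10.18 in the adult hearts and 9.04, 8.66 and 9.06 in the pup hearts. The same probe set measured 8.46 and 8.57 in the adult hippocampi and 9.44, 9.01 and 9.18 in the pup hippocampi. The ages did not overlap in either tissue, with adults above pups in heart and below them in hippocampus. The rise in heart was 1.20 ± 0.24 (SE, adjusted p = 0.00807), the difference in hippocampus was -0.69 ± 0.24 and did not pass (adjusted p = 0.0825), and these were 1.89 ± 0.34 apart (adjusted p = 0.0199). By 1426334_a_at, Bcl2l11 measured 7.30 and 7.54 in the adult hearts, 5.63, 5.92 and 6.08 in the pup hearts, 5.10 and 5.02 in the adult hippocampi and 5.56, 6.01 and 5.94 in the pup hippocampi. These values lie below 7.69, the lower quartile of the probe set means over the 10 samples. Again adults stood above pups in heart and below them in hippocampus. The rise in heart was 1.54 ± 0.25 (adjusted p = 0.00318), the difference in hippocampus was -0.78 ± 0.25 (adjusted p = 0.0651), and these were 2.32 ± 0.35 apart (adjusted p = 0.0114).

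Between the adult tissues, 3 Bcl2l11 probe sets were lower in hippocampus than in heart, by 2.36 ± 0.27 at 1426334_a_at (adjusted p = 0.000547), by 1.60 ± 0.26 at 1435449_at (adjusted p = 0.00284) and by 2.30 ± 0.46 at 1435448_at (adjusted p = 0.00709). By 1435448_at, Bcl2l11 measured 12.72 and 12.58 in the adult hearts, 11.29, 11.09 and 12.45 in the pup hearts and from 10.06 to 11.06 over all hippocampi. The adult hearts lay above every other sample by this probe set too, but the difference between the ages of heart, 1.04 ± 0.42, did not pass (adjusted p = 0.114). Between the pup tissues none of the 5 Bcl2l11 probe sets was called by limma, with differences from -1.03 to 0.54 and an adjusted p of at least 0.106. For 1435448_at the difference between the tissues was 1.27 ± 0.60 larger in adults than in pups, which did not pass (adjusted p = 0.265). The remaining probe sets, 1456005_a_at and 1456006_at, were called in 0 of the 5 comparisons. By 1456005_a_at, the samples of a group spread widely, from 10.21 to 12.73 in the pup hippocampi and from 11.00 to 13.13 in the pup hearts.

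Several Bcl2l11 calls were lost when 1 adult sample was left out, which leaves 1 sample in its group, while the differences changed little. Without adult heart replicate 1 or 2, the rise by 1435449_at was 1.26 or 1.14 and lost its call. The rise by 1426334_a_at kept its call without each sample. The difference between the tissues in the age effect lost its call without any 1 of the 4 adult samples, with an adjusted p from 0.0527 to 0.0617 for 1426334_a_at and from 0.0731 to 0.0938 for 1435449_at, although its size stayed between 2.20 and 2.46 and between 1.76 and 1.99. Without adult hippocampus replicate 2, the difference between the adult tissues by 1435448_at had an adjusted p of 0.0513.

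**Figure D3:**
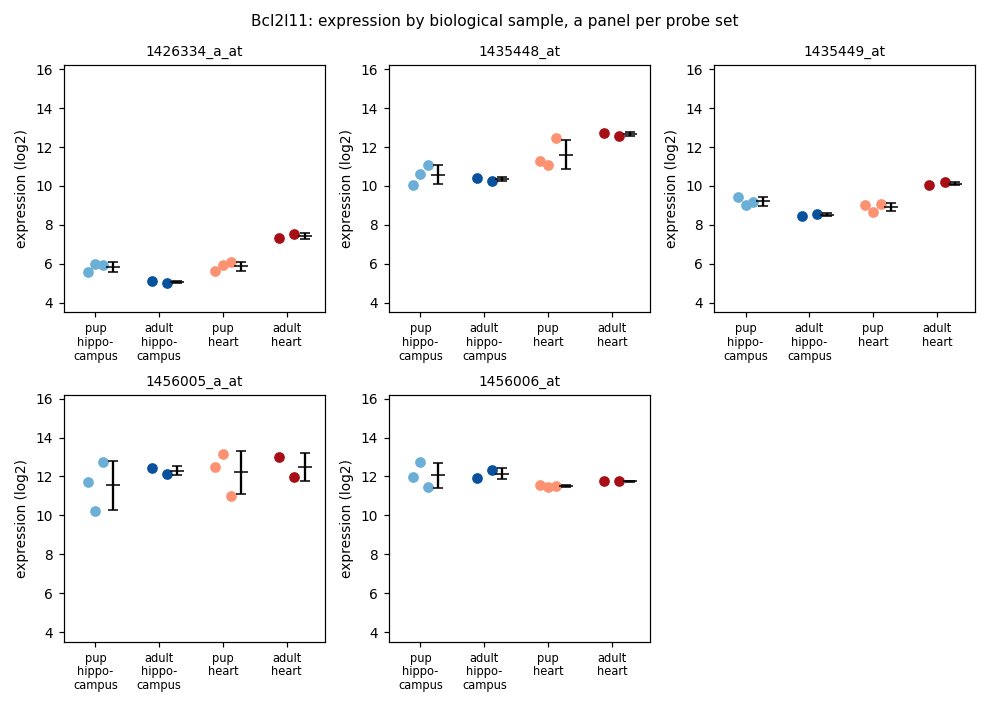
Bcl2l11 expression (y axis, log2) in each biological sample, with a panel for each probe set and the group mean and SD in black. Adult heart is highest by 1426334_a_at, 1435448_at and 1435449_at, at means of 7.42, 12.65 and 10.12, and the groups overlap by 1456005_a_at.

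Forkhead factors such as Foxo3 are known regulators of Bcl2l11 and Bbc3, so the promoter windows of the members were searched for the forkhead core GTAAACA on both strands. Windows ran from 250 bases before to 50 bases after each transcript start in RefSeq on GRCm38.p6, and 9 members had 15 windows between them. These members included Bax, whereas no window was available for Bik, which was therefore not searched. The core was in 2 of the 15, one of Bcl2l11 on chr2:128125788-128126087 and one of Bbc3 on chr7:16310011-16310310, both on the plus strand, and in 3.65% of all 32851 windows. These 2 windows are shown because they were the only member windows that held the motif, in lower case with the motif in capitals, GTAAACA in Bcl2l11 and its reverse complement TGTTTAC in Bbc3.
Bcl2l11: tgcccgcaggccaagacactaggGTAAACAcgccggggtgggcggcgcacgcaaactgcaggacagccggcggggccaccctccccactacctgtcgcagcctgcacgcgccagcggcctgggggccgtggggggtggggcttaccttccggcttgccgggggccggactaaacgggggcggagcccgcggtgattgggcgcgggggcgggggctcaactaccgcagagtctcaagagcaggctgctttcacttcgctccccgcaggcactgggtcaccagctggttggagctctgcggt
Bbc3: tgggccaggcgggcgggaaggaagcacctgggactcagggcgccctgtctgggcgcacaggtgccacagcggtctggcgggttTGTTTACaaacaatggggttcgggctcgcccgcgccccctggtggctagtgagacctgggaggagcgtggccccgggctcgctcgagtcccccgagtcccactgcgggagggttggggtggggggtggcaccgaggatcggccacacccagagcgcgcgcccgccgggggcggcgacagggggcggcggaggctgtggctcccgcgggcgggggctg
The match is a description of these letters and not a binding site, and the motif was picked with earlier results known. Foxo3 itself, by 1450236_at alone of its 3 probe sets, was called 2.01 higher in adult hippocampus than in adult heart (adjusted p = 0.0146). The call was lost without adult hippocampus replicate 1 or either adult heart, at differences of 1.57, 1.91 and 2.11.

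Bbc3, whose protein Puma is induced by p53, had a single probe set and was called in 0 of the 5 comparisons. By 1423315_at, Bbc3 measured 10.12 and 10.45 in the adult hearts, 9.56, 9.68 and 8.97 in the pup hearts, 9.57 and 9.71 in the adult hippocampi and 8.75, 9.24 and 8.46 in the pup hippocampi. Adults did not overlap with pups in either tissue. The differences were 0.88 ± 0.31 in heart (adjusted p = 0.0769) and 0.82 ± 0.31 in hippocampus (adjusted p = 0.106).

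Bad, a BH3-only protein that growth factor signalling keeps inactive by phosphorylation, fell in both tissues by 1 of its 2 probe sets. By 1416582_a_at, Bad measured 13.91, 13.62 and 14.11 in the pup hippocampi, 11.77 and 12.31 in the adult hippocampi, 12.86, 12.13 and 13.13 in the pup hearts and 10.93 and 11.03 in the adult hearts. The ages did not overlap in either tissue, nor did the tissues at either age. Bad fell by 1.73 on the log2 scale in heart (SE 0.33, adjusted p = 0.00655) and by 1.84 on the log2 scale in hippocampus (SE 0.33, adjusted p = 0.00757), and the 2 differences were 0.11 ± 0.47 apart (adjusted p = 0.925). It was 1.17 ± 0.30 higher in hippocampus than in heart of pups (adjusted p = 0.0265), and 1.06 ± 0.36 higher in adults, which did not pass (adjusted p = 0.0641). By 1416583_at, the differences between the ages were -0.65 ± 0.33 in heart and -0.31 ± 0.33 in hippocampus and neither passed. The age calls were lost without adult heart replicate 1 (adjusted p = 0.0574) and without adult hippocampus replicate 1 (adjusted p = 0.0817).

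Bid, which links death receptors to the mitochondrion once caspases have cut it, was called in 1 of its 15 tests. By 1417045_at, Bid measured 7.30, 7.44 and 7.12 in the pup hippocampi and 6.48, 6.42 and 6.26 in the pup hearts, without overlap, a difference of 0.90 ± 0.22 (adjusted p = 0.0206). These values lie below 7.69, the lower quartile of the probe set means over the 10 samples. Technical arrays lay up to 1.31 apart by this probe set, in adult heart replicate 2. In adults the same probe set was 0.68 ± 0.26 higher in hippocampus and did not pass (adjusted p = 0.0953). By 1447873_x_at, adult heart was above adult hippocampus, at a difference of -1.21 ± 0.41 that did not pass (adjusted p = 0.0606), so the Bid probe sets did not run the same way.

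Bak1, the effector measured here, had 2 probe sets that ran in opposite directions in hippocampus. By 1418991_at, Bak1 measured 9.19, 9.16 and 9.03 in the pup hippocampi and 7.40 and 7.77 in the adult hippocampi, and it fell by 1.54 on the log2 scale (SE 0.35, adjusted p = 0.0184). By 1425716_s_at, Bak1 measured 9.40, 9.78 and 9.69 in the pup hippocampi and 12.58 and 11.46 in the adult hippocampi, a rise of 2.39 ± 0.42 (adjusted p = 0.00662). Neither probe set had overlapping ages in hippocampus, and no single direction can be given for Bak1. The probe sets had a Pearson's r of -0.71 over the 10 samples. In heart their differences were -0.96 ± 0.35 and 0.66 ± 0.42, and neither passed (adjusted p = 0.0812 and 0.298).

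Bak1 was also the member with some of the widest gaps between technical arrays. By 1425716_s_at, the 4 arrays of adult heart measured 10.54, 13.30, 11.08 and 12.87, so that the replicate means of 11.92 and 11.98 hide gaps of up to 2.75. This probe set is of the type _s_at, which can match more than 1 transcript. The fall by 1418991_at lost its call without pup hippocampus replicate 2 (adjusted p = 0.0503) or adult hippocampus replicate 1 or 2 (adjusted p = 0.138 and 0.0679), and the rise by 1425716_s_at lost it without adult hippocampus replicate 1 (adjusted p = 0.0716).

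Mcl1, a guardian with a short-lived protein that heart muscle is known to need, fell from pup to adult heart by 3 of its 6 probe sets. By 1456243_x_at, Mcl1 measured 11.12, 10.23 and 10.61 in the pup hearts and 8.89 and 9.14 in the adult hearts, and it fell by 1.64 on the log2 scale (SE 0.30, adjusted p = 0.00518). By 1416880_at, the pup hearts measured 15.14, 15.13 and 15.08 and the adult hearts 14.11 and 13.49, a fall of 1.32 ± 0.24 (adjusted p = 0.00551) from near the top of the range. By 1448503_at, the pup hearts measured 10.58, 10.27 and 11.28 and the adult hearts 9.26 and 9.36, a fall of 1.40 ± 0.36 (adjusted p = 0.0236). The ages did not overlap in heart by any of these probe sets. They also did not overlap by the other Mcl1 probe sets, which were not called and did not all run the same way. The share of all probe sets without overlap is not given here, so the lack of overlap is a description only. On average 1437527_x_at and 1456381_x_at were lower in adults, by 0.78 ± 0.44 and 1.28 ± 0.60, and 1416881_at was higher, by 0.86 ± 0.39. Single arrays did overlap by 1456381_x_at, at 12.39, 10.80, 12.95 and 10.74 in adult heart against 12.54, 14.30 and 12.14 in pup heart. Its technical arrays lay up to 2.80 apart, in adult hippocampus replicate 2.

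In hippocampus 1456243_x_at was the only Mcl1 probe set called, from 9.57, 9.78 and 9.99 in pups to 8.38 and 8.62 in adults, a difference of -1.28 ± 0.30 (adjusted p = 0.0205). The ages did not overlap there by 1416880_at and 1437527_x_at either, which were lower in adults on average by 0.74 ± 0.24 and 1.04 ± 0.44 and did not pass (adjusted p = 0.0686 and 0.143). By 1448503_at, the hippocampi of both ages lay between 8.80 and 9.71, and pup heart was 1.39 ± 0.32 above pup hippocampus (adjusted p = 0.0175). The age difference of this probe set was 1.45 ± 0.51 lower in heart than in hippocampus, which did not pass (adjusted p = 0.147). Without adult heart replicate 1, the falls in heart had adjusted p-values of 0.0541 for 1456243_x_at and 0.131 for 1448503_at, and without adult heart replicate 2 they were 0.0575 for 1416880_at and 0.101 for 1448503_at. The fall in hippocampus lost its call without pup hippocampus replicate 2 or 3 (adjusted p = 0.0540 and 0.0645) or adult hippocampus replicate 1 or 2 (adjusted p = 0.142 and 0.0818).

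**Figure D4:**
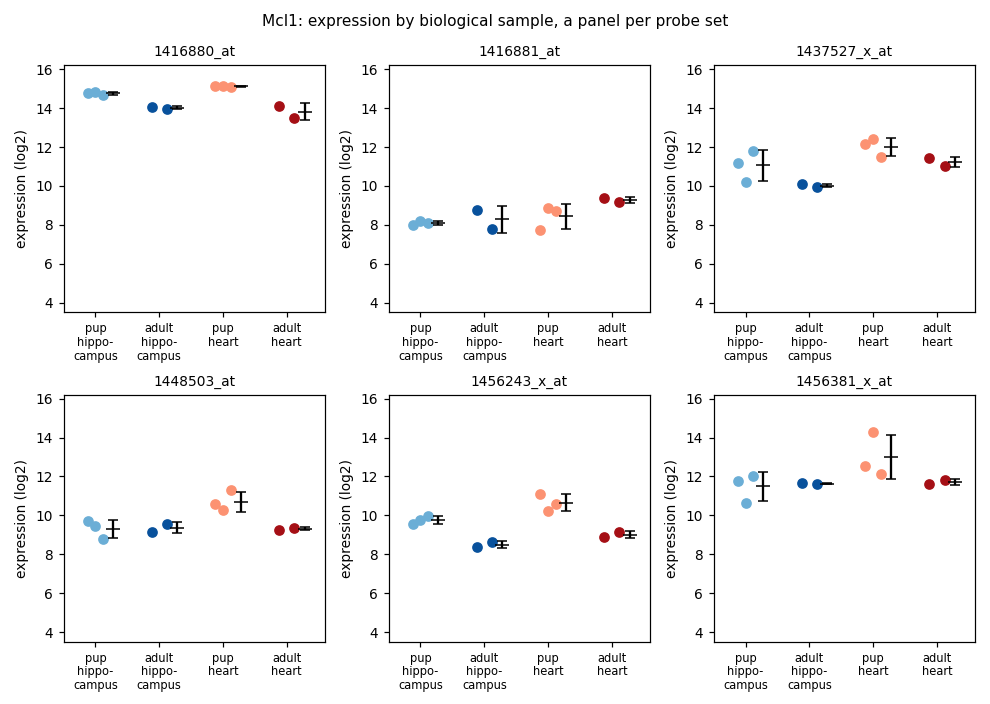
Mcl1 expression (y axis, log2) in each biological sample, with a panel for each probe set and the group mean and SD in black. Pup heart stands above adult heart on average by every probe set except 1416881_at, by which it stands below.

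Bcl2l1, the guardian Bcl-xL, was high in pup hippocampus by 1420888_at. It measured 13.72, 14.52 and 14.92 in the pup hippocampi, 11.13, 11.82 and 13.04 in the pup hearts, 11.71 and 12.31 in the adult hippocampi and 10.39 and 10.39 in the adult hearts. The pup hippocampi overlapped with no other group. By this probe set Bcl2l1 fell by 2.38 on the log2 scale from pup to adult hippocampus (SE 0.53, adjusted p = 0.0178) and was 2.39 ± 0.47 higher in hippocampus than in heart of pups (adjusted p = 0.00808). The difference between the ages of heart, -1.60 ± 0.53, did not pass (adjusted p = 0.0598), although it did after the median centring and scaling that the methods describe (adjusted p = 0.0446). The other 3 Bcl2l1 probe sets were called in 0 of the 5 comparisons, and each was higher on average in adults than in pups in each tissue, by 0.09 to 0.78. The fall in hippocampus had an adjusted p of 0.0501 and 0.0582 without pup hippocampus replicates 2 and 3, and of 0.136 and 0.0644 without adult hippocampus replicates 1 and 2.

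Bcl2, the guardian that gave the family its name, differed between the tissues by 1422938_at. It measured 8.84, 8.35 and 9.12 in the pup hippocampi and 7.32, 7.47 and 7.83 in the pup hearts, a difference of 1.23 ± 0.34 (adjusted p = 0.0407). In adults it measured 8.99 and 10.23 in hippocampus and 7.25 and 7.53 in heart, a difference of 2.22 ± 0.42 or 4.67-fold (adjusted p = 0.00538). The tissues overlapped at neither age, and the gap between the differences at the 2 ages was 1.00 ± 0.54 (adjusted p = 0.339). The difference between the adult tissues kept its call without each of the 10 samples in turn, with a range from 1.60 to 2.84. The difference between the pup tissues lost it without pup hippocampus replicate 1 or 3 (adjusted p = 0.111 and 0.130), pup heart replicate 1 or 2 (adjusted p = 0.110 and 0.0955) or either adult heart replicate (adjusted p = 0.0624). None of the other 4 Bcl2 probe sets was called by limma in any comparison, and their differences between the tissues lay between -0.38 and 0.41.

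Because most cardiac markers were highest among the pup hippocampi in replicate 1, the comparison of the pup tissues was set beside its values without that replicate. It then called 2 of the 28 member probe sets in place of 6. Bcl2l1 1420888_at and Mcl1 1448503_at kept their calls. Adjusted p-values were 0.111 for Bcl2 1422938_at, 0.0584 for Bak1 1425716_s_at, 0.0778 for Bad 1416582_a_at and 0.0650 for Bid 1417045_at. These differences were then 1.19, -1.55, 1.16 and 0.89, against 1.23, -1.66, 1.17 and 0.90 with all samples. With all samples, Bak1 by 1425716_s_at was 1.66 ± 0.37 lower in hippocampus than in heart of pups (adjusted p = 0.0150), at 9.40, 9.78 and 9.69 against 11.80, 11.50 and 10.56. Calls in this comparison were also lost without other single replicates, while the differences kept their direction. Without pup hippocampus replicate 3, Mcl1 1448503_at had an adjusted p of 0.0629 and Bad 1416582_a_at of 0.0894. Without pup hippocampus replicate 2, Bid 1417045_at had an adjusted p of 0.0825. Bak1 1425716_s_at had an adjusted p of 0.0519 without pup heart replicate 1, and Bad 1416582_a_at of 0.0645 without pup heart replicate 2.

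**Figure D5:**
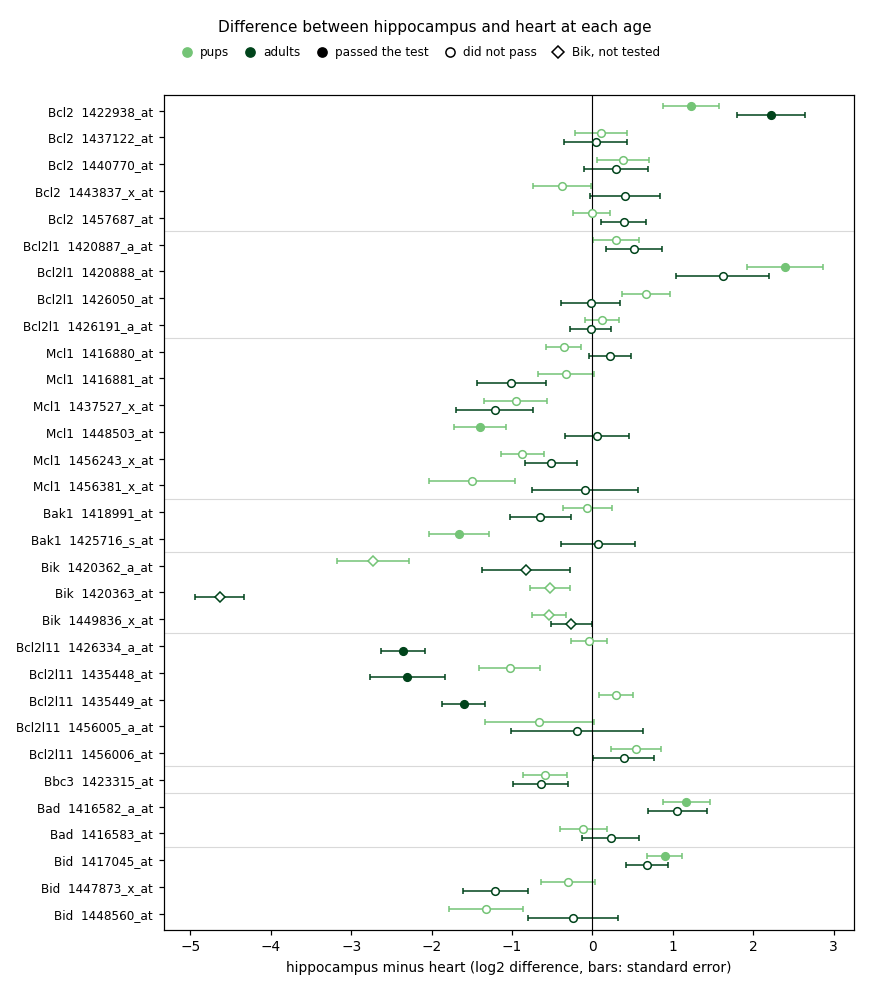
Difference between hippocampus and heart for each of the 31 probe sets (x axis, hippocampus minus heart on the log2 scale, bars are limma standard errors), light green for pups and dark green for adults. Filled points passed the test, open points did not, and diamonds mark Bik, which was not tested. Bik 1420363_at lies at -4.64 in adults and -0.52 in pups, and 3 Bcl2l11 probe sets pass in adults and not in pups.

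Relatives of the family beyond the 10 members were followed through 28 probe sets of 12 genes. Of all probe sets on the array, 11.7% were higher and 8.32% lower in adult than in pup heart, and 8.38% were higher and 6.52% lower in adult than in pup hippocampus. Between hippocampus and heart these shares were 7.52% and 6.77% in pups and 10.3% and 11.9% in adults, which holds for the counts of every list that follows. Between adult and pup heart 1 was higher and 3 were lower, with a median difference of -0.01 against 0.11 over all probe sets, and in hippocampus 1 was higher and 2 were lower, with a median of 0.16 against 0.12. Between the tissues 1 was higher and 2 were lower in hippocampus of pups, and 2 were higher and 1 lower in adults. Hrk, a BH3-only gene of neurons, had 2 probe sets, of which only 1439854_at was called. By that probe set Hrk was 2.59 higher in hippocampus than in heart of pups (11.40 ± 0.29 against 8.82 ± 0.34, SD, n = 3 each), with an adjusted p from limma of 0.000142. It fell by 1.52 on the log2 scale from pup to adult hippocampus by the same probe set (adjusted p = 0.0105), a call lost without adult hippocampus replicate 1 (adjusted p = 0.0963). Bmf, a BH3-only gene tied to the cytoskeleton, rose by 1.66 in heart by 1422995_at (adjusted p = 0.00972, and 0.0995 without adult heart replicate 1), while another of its 3 probe sets fell there. Bnip3, a mitochondrial protein induced when oxygen is low, fell by 1.51 on the log2 scale in hippocampus (adjusted p = 0.0283, and 0.0547 to 0.155 without any 1 of the 5 hippocampi).

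The apoptosome and caspase list, with 30 probe sets of 14 genes, had 9 probe sets lower and 3 higher in adult heart, where 8.32% and 11.7% of all probe sets were, with a median difference of -0.66 against 0.11 over all probe sets. In hippocampus 8 were lower and 2 higher, against 6.52% and 8.38% of all, with a median of -0.27 against 0.12. The members that fell furthest were porins of the outer mitochondrial membrane. Vdac2 fell by 3.69 on the log2 scale in heart by 1415990_at, from 14.52 ± 0.71 (SD, n = 3) to 10.82 ± 0.10 (SD, n = 2), and by 2.21 on the log2 scale in hippocampus (adjusted p from limma 0.000555 and 0.00581). The hippocampal fall of Vdac2 lost its call without adult hippocampus replicate 1 (adjusted p = 0.0602). Cycs, which codes for the cytochrome c that escapes through the pores and that also carries electrons in respiration, was 4.03 lower in hippocampus than in heart of pups by 1456071_a_at (adjusted p = 7.06e-05). In adults it was 3.26 lower (adjusted p = 0.00126). Apaf1, the scaffold of the apoptosome, was 1.49 higher in adult hippocampus by 1452870_at (adjusted p = 0.00462), the only 1 of its 2 probe sets called there. In all, 1 probe set of this list was higher and 6 were lower in hippocampus between the pup tissues, and 5 were higher and 7 lower between the adult tissues, where 7.52% and 6.77% of all probe sets were higher and lower in pups and 10.3% and 11.9% in adults.

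Inhibitor of apoptosis genes had 20 probe sets of 8 genes, of which 1 rose and 3 fell in heart and 1 fell in hippocampus, with median differences of -0.05 and 0.12. Over all probe sets 11.7% rose and 8.32% fell in heart, 8.38% rose and 6.52% fell in hippocampus, and the medians were 0.11 and 0.12. In hippocampus against heart 1 was lower in pups, and 4 were higher and 1 lower in adults. Birc6, a large ubiquitin ligase, fell by 3.39 on the log2 scale in heart by 1419562_at (adjusted p = 0.00999, and 0.0684 and 0.0665 without adult heart replicates 1 and 2), and by 1419563_at it was 2.05 higher in adult hippocampus than in adult heart (adjusted p = 0.00394). Birc6 had 6 probe sets, of which 2 were called lower in adult than in pup heart. In adults 2 of them were called higher in hippocampus than in heart. Of 25 probe sets of 13 death receptor genes, 2 rose and 1 fell in heart and 2 rose in hippocampus, with median differences of 0.14 and 0.35. In hippocampus against heart 1 was higher and 1 lower in pups, and 2 were higher and 3 lower in adults. Cradd, an adaptor of caspase 2, measured 10.11 ± 0.07 (SD, n = 2) in adult hippocampus and 7.70 ± 0.02 (SD, n = 2) in adult heart, a difference of 2.41 with an adjusted p from limma of 0.000537.

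Of 37 probe sets of 15 p53 and other regulator genes, 4 rose and 4 fell in heart, and 2 rose and 3 fell in hippocampus, with median differences of -0.04 and 0.07. The whole array had 11.7% higher and 8.32% lower in heart and 8.38% and 6.52% in hippocampus, with medians of 0.11 and 0.12. In hippocampus against heart 2 were higher and 6 lower in pups, and 3 were higher and 7 lower in adults. Cdkn1a, the p53 target p21, fell by 2.05 on the log2 scale in heart (adjusted p = 0.0198, and 0.145 and 0.0646 without adult heart replicates 1 and 2) and by 3.18 on the log2 scale in hippocampus (adjusted p = 0.00456, and 0.0566 without adult hippocampus replicate 1), both by 1421679_a_at. Of the 2 Cdkn1a probe sets, the other was called between the ages in neither tissue. E2f1, a transcription factor of the cell cycle, rose by 1.77 in heart by 1431875_a_at (adjusted p = 0.00424), and another of its 3 probe sets fell. Ccng1, another p53 target, was 2.66 lower in hippocampus than in heart of pups and 3.27 lower in adults by 1420827_a_at (adjusted p = 0.000241 and 0.000445).

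The probe sets most alike to Bik were found by Pearson's r over the 10 samples, which is a description because the samples share groups. Against the mean of the 3 Bik probe sets they were those of Cog8 at an r of 0.99, Gsn at 0.99, Hipk2 at 0.99, Uty at 0.97 and Tardbp at 0.97. Against 1420363_at alone, a comparison added after the Bik probe sets were seen to differ, they were those of Frrs1, Egfem1, Catsperz, Lepr and Spata31d1d, each at 0.98 to 0.99. By Frrs1 1460141_at, adult heart had a mean of 12.38 against 9.28 in pup heart, 8.94 in pup hippocampus and 8.61 in adult hippocampus, and by Lepr 1425873_a_at a mean of 9.30 against 7.75 to 7.87. No gene appeared in both sets of 5.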

How the data were processed

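Expression was measured on 14 Affymetrix mouse arrays of hippocampus and heart. The deposited values are log2 expression of 45101 probe sets, which the authors summarized by the upper decile with RMA 2.0 per the methods. They were neither median centred nor scaled by percentile range, which was run as an alternative, and the background correction is not given in the sources used here. Gene names came from the annotation given with the arrays: 34945 tested probe sets named 1 gene, 932 several and 9160 none, and 64 array controls were left out. Technical arrays were averaged, and the 10 biological samples entered 1 fit of limma 3.58.1 (R 4.3.3, statmod 1.5.0) over all 45037 probe sets, with a mean for each group, 6 residual and 3.73 prior degrees of freedom, and no filter. Tests were two-sided, with Benjamini-Hochberg adjustment in each of 5 comparisons and a threshold of 0.05, and precision is limited by how many arrays there were. Standard errors, from limma, had a median of 0.34 between the ages, 0.30 and 0.37 between the pup and adult tissues and 0.48 for the difference between the age effects, and each SD is taken over biological samples. The procedure was tested on simulated data. Members, gene lists, the motif and the tests were chosen with earlier results of these data known. Genes were named as every member probe set, up to 4 genes of each list with the largest called differences in a comparison, the 5 probe sets most alike to Bik, and tissue markers. Alternatives were the scaling of the methods, quantile normalization, a filter on dim probe sets, the 14 arrays as samples or with a random block, the groups of a comparison alone, the methods' t-test, the removal of _s_at and _x_at probe sets, a replicate block and each sample left out. Of the adult arrays, other labels and the methods name all 4 of a tissue as biological replicates, hence the alternative with 14 samples.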

Additional observations from a re-analysis of the deposited data

Results flagged for a closer look

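The age effect differed between heart and hippocampus, tested by subtracting the difference in hippocampus from the one in heart, for 2 member probe sets and 2 probe sets of the gene lists. For Bcl2l11 1426334_a_at it was 2.32 (adjusted p = 0.0114), with a difference of 1.54 in heart and -0.78 in hippocampus. For Bcl2l11 1435449_at it was 1.89 (adjusted p = 0.0199), with 1.20 in heart and -0.69 in hippocampus. Both lost the call without any 1 of the 4 adult samples, with an adjusted p from 0.0527 to 0.0617 and from 0.0731 to 0.0938. For Casp9 1426125_a_at, the caspase that the apoptosome activates, it was -1.50 (adjusted p = 0.0331), with -0.43 in heart and 1.07 in hippocampus, and it lost its call without 8 of the 10 samples, the exceptions being pup heart replicates 2 and 3 (adjusted p = 0.0531 to 0.135 without each of the 8). For Cradd 1427505_a_at it was -2.30 (adjusted p = 0.0123), with -0.86 in heart and 1.43 in hippocampus, and it lost its call without any 1 of the 4 adult samples (adjusted p = 0.0523 to 0.0706). Groups of 2 and 3 samples are too small for a test of outlying samples.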

How the results depend on the processing

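The 23 called differences of member probe sets gave 427 values over the alternatives. Of these 349 kept direction and call, 78 kept the direction without the call, and 0 reversed. The 63 called differences of the gene lists gave 1184 values, of which 944 kept the call, 240 lost it and 0 reversed. Counts of called member probe sets moved as follows. Between adult and pup heart, 6 became 0 with the methods' t-test and 2 to 8 when each sample was left out, lowest without adult heart replicate 1 (2) and replicate 2 (3). Between adult and pup hippocampus, 5 became 8 with the 14 arrays as samples, 2 with the methods' t-test, 3 without _s_at and _x_at probe sets, 3 with a replicate block and 0 to 6 when each sample was left out, at 3 without pup hippocampus replicate 2 or 3, 0 without adult hippocampus replicate 1 and 2 without replicate 2. Between the pup tissues, 6 became 2 with the methods' t-test and 2 to 8 when each sample was left out, at 2 and 3 without pup hippocampus replicates 1 and 3. Between the adult tissues, 4 became 10 with the 14 arrays as samples, 9 with a random block, 7 with the groups of the comparison alone, 0 with the methods' t-test, 7 with a replicate block and 3 to 6 when each sample was left out. For the difference between the age effects, 2 became 1 without dim probe sets, 0 with a replicate block and 0 to 3 when each sample was left out, at 0 without any 1 adult sample. This last comparison needs all 4 groups and was not run on fewer.

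Over all probe sets the calls moved by more than 1.5 times too. Between adult and pup heart, 9011 became 4557 with the groups alone, 1 with the methods' t-test and 3303 to 10260 when each sample was left out. In hippocampus 6709 became 10275 with 14 arrays, 1887 with the methods' t-test, 4422 with a replicate block and 1330 to 8763. Between the pup tissues 6437 became 1938 with the methods' t-test. Between the adult tissues 9988 became 16819 with 14 arrays, 15588 with a random block, 1 with the methods' t-test and 4564 to 11866. For the difference between the age effects 1600 became 4543 with 14 arrays, 4078 with a random block, 960 with the methods' t-test, 245 with a replicate block and 209 to 2490. Scaling moved the median of all probe sets between adult and pup heart from 0.11 to -0.03 with the scaling of the methods and to 0.00 with quantile normalization. At the 0.1% threshold of the methods, their t-test with Benjamini-Hochberg adjustment called 0 member probe sets in each comparison and limma called 1, between the adult tissues. Whether the replicate numbers pair the samples of the tissues could not be settled from the values. Deviations of same-numbered samples of the pup tissues had r of 0.20, -0.08 and 0.01, and those with different numbers -0.16 to 0.16. Same-numbered samples of the adult tissues had -0.06, but with 2 samples in a group the deviations mirror each other and cannot show pairing. The cause of these shifts was not tested, except that leaving out an adult sample leaves 1 sample in its group, which is then assumed to vary like the others. Levels near background were not separated from it, so differences at low levels, called or not, cannot be told apart from differences in background.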
